A study of Mus musculus with 8 samples.

Results

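Crypt cells of the mouse intestine that carried a medium level of the receptor EphB2 on their surface were compared with crypt cells that carried a low level. The comparison holds 4 of the 8 arrays of the series, chosen by their titles alone: 2 arrays of EphB2 Medium cells and 2 of EphB2 Low cells. It was read across every probe set that is not a control and names exactly 1 gene, 34945 of 45101 probe sets, which represent 18193 genes with the brightest probe set standing for each gene. The strain on the labels is C57BL/6 for every array, and no treatment other than the preparation of the cells is named. Intestines were shaken in EDTA and digested with Dispase and DNase, the suspension was stained with an antibody to EphB2 and sorted by flow cytometry, and the RNA was amplified isothermally before it reached Affymetrix arrays. One more sort from the same procedure, EphB2 High (2 arrays), enters here for the spread between arrays and for the preceding step of the gradient, while 2 arrays of cells sorted by an Lgr5 reporter were not used. Replicate 1 of each EphB2 group was hybridized in a first round and replicate 2 in a second. Whether the replicates came from different mice is not stated on the labels, so every p-value below measures the spread between these arrays, which may be technical.

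The epithelium of the small intestine renews itself from stem cells at the bottom of each crypt. Their daughters divide several times as transit-amplifying progenitors, stop dividing as they move up, and emerge on the villus as absorptive enterocytes or as secretory cells. EphB2 is a receptor tyrosine kinase that Wnt signalling switches on, so its surface level falls along that path. Enterocytes carry a brush border of microvilli whose membrane holds digestive enzymes and transporters for sugars, amino acids, vitamins and ions, and they pack absorbed fat into chylomicrons. Cells sorted for medium against low EphB2 are therefore often read as progenitors against their differentiating offspring, although the labels name the groups only by their EphB2 level.

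Levels are log2 values after RMA (the method that corrects background, equalizes the arrays' distributions and summarises a probe set), so a difference of 1 is a 2-fold change. Errors are limma's standard errors with n = 2 arrays per group, and a call needs an adjusted p below 0.05 from limma with Benjamini-Hochberg adjustment over the 18193 genes. By that rule 4489 genes (24.7%) differed, 2656 (14.6%) higher in medium cells and 1833 (10.1%) higher in low cells. At least 2-fold differences were called for 1201 genes higher in medium cells (6.6%) and 833 higher in low cells (4.58%), but at least 8-fold ones of measured signal for 2 genes in medium cells (0.011%) and 59 in low cells (0.324%). Both medium arrays lay above both low arrays in 5905 genes (32.5%) and below them in 5392 (29.6%). The median difference of a called gene was alike in both directions, 0.93 for genes higher in medium cells and 0.92 for genes higher in low cells, and the largest were 3.17 and 4.39. Calls depended on single arrays. Without EphB2 Medium replicate 2 limma called 988 genes, 407 higher in medium cells (41.2% in place of 59.2%), without EphB2 Medium replicate 1 it called 1662 (52.8% higher in medium), and without EphB2 Low replicate 2 it called 2485. In these fits 0 genes were called with a direction opposite to the one they had with all arrays. No detection calls were used here. Signals as low as those of the stromal and endothelial markers (list means of 4.97 to 5.25 on these 4 arrays) may be background, so a difference from such a signal is one between measured signals and no exact fold of RNA, and levels of different probe sets are not compared. Because whole sorted populations were measured, a lower level can mean fewer cells of a type or less of an RNA per cell, and these cannot be told apart here.

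**Figure D1:**
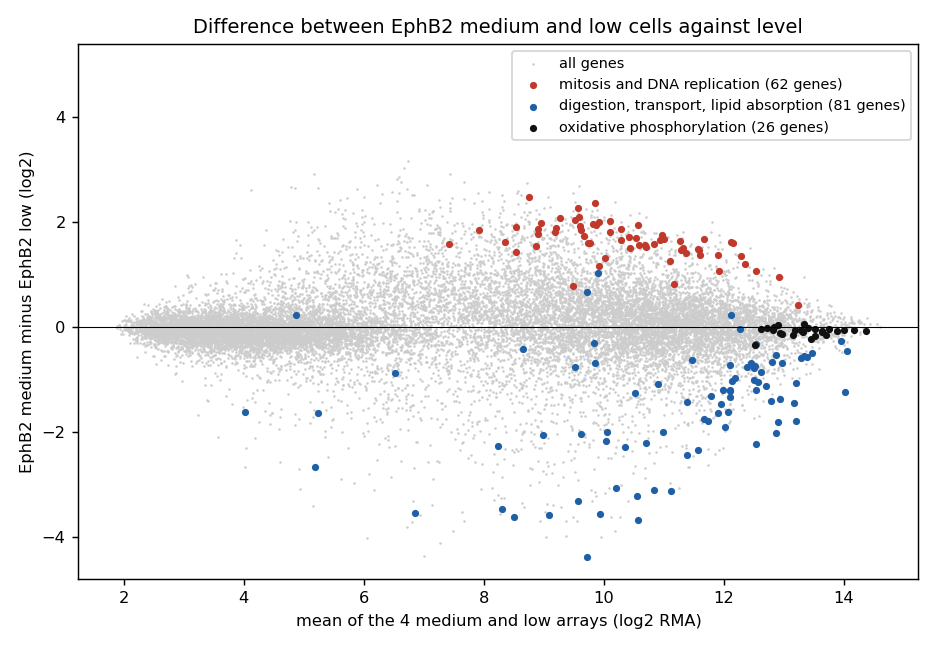
Difference between EphB2 medium and low cells (log2, vertical axis) against the mean level of the 4 arrays (log2 RMA, horizontal axis), 1 point per gene, with 3 groups of gene lists in colour. Mitosis and DNA replication genes all lie above 0, most digestion, transport and lipid absorption genes lie below 0 and reach -4.39 (Plb1), and oxidative phosphorylation genes lie along 0.

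Division genes were lower in low cells across both lists. All 30 measured genes of mitosis and all 32 of DNA replication were called higher in medium cells, against 14.6% of all genes, with median differences of 1.73 and 1.60 beside -0.006 over all genes. Ndc80, which ties chromosomes to spindle fibres, stood at 9.54 and 9.44 on the medium arrays and at 7.79 and 7.38 on the low arrays, a difference of 1.90 ± 0.16 (3.74-fold, limma adjusted p = 0.00277). The medium and low arrays did not overlap for Ndc80, and its call was kept whichever array was left out. Kif2c, a kinesin that corrects faulty chromosome attachments, differed by 1.85 ± 0.17, the spindle checkpoint kinase Ttk by 1.92 ± 0.23 and the kinetochore protein Cenpf by 1.98 ± 0.26, each with the same stability. The replicative helicase was lower in low cells by several of its subunits. Mcm2 stood at 10.91 and 11.11 in medium cells and at 9.53 and 8.86 in low cells (1.81 ± 0.23, limma adjusted p = 0.00664). Mcm6 and the replication factor Mcm10, which is not one of those subunits, differed by 1.49 ± 0.19 and 1.32 ± 0.17. These 3 kept their call without any single array.

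The size of the loss differed between the arrays. Mki67, a marker of cycling cells, was at 12.96 and 12.99 on the medium arrays and at 11.92 and 11.30 on the low arrays. Its difference of 1.36 ± 0.21 (limma adjusted p = 0.01) lost its call without EphB2 Medium replicate 1 (adjusted p = 0.0512) and without EphB2 Medium replicate 2 (0.0609). The loss was larger in the second hybridization. For mitosis genes the median difference was 1.19 in the first and 2.18 in the second, and the median level of the list was 9.93 on EphB2 Low replicate 1 and 8.87 on EphB2 Low replicate 2, beside 11.16 and 11.27 on the medium arrays. For replication genes the medians were 1.17 and 1.99. Leaving out EphB2 Medium replicate 1 or 2 lowered the count of called mitosis genes from 30 to 7 and 5 and of replication genes from 32 to 16 and 3. In the step before, from high to medium cells, the median difference was 0.37 for mitosis and 0.22 for replication, and limma called 0 of either list there (background 0.214% of genes called higher in high cells and 1.15% higher in medium cells).

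The promoters of these genes are shown because the members moved together and because promoters of mitosis genes are known for the CHR element and the CCAAT box, and those of replication genes for E2F sites. The windows are the 250 bases before the RefSeq transcript start (GRCm38.p6), each motif was searched on both strands, and no overlap between motifs was removed. The CCAAT box (CCAAT) was in 20 of 26 windows of mitosis genes (76.9%, 24 genes) and in 19 of 33 windows of replication genes (57.6%, 26 genes), against 33.8% of all 32851 windows. Windows of brush border digestion genes, which moved the other way, held it in 10 of 20 cases (50%). The CHR element (TTTGAA) was in 11 mitosis windows (42.3%) and 5 replication windows (15.2%), against 16% of all windows. The E2F site (GCGGGAA) was in 0 mitosis windows and 9 replication windows (27.3%), against 3.8% of all windows and 9.1% of those of nutrient and ion transport genes. Mki67 (chr7:135716380-135716629, minus strand) and Cdc20 (chr4:118437344-118437593, minus strand), the activator of the anaphase ligase, show CCAAT boxes beside CHR elements, and Rpa2 (chr4:132768110-132768359, plus strand), a single-strand DNA binding protein, and Gins3 (chr8:95633309-95633558, plus strand), a helicase partner, show the E2F site. They are the members of smallest p in each list that had these motifs in a window open to this choice. Windows on a chromosome set aside beforehand were not open to it, so members of smaller p there may have been passed over. Capitals mark, on either strand, the CCAAT box and the CHR element in Mki67 and Cdc20 and the E2F site alone in Rpa2 and Gins3, where CCAAT and CHR letters are left in lower case. A match is a description of the letters, not of a bound site.
Mki67: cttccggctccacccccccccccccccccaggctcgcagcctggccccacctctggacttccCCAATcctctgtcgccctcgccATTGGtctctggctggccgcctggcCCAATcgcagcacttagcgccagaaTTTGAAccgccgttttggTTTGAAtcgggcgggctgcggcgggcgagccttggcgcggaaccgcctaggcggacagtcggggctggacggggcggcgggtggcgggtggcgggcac
Cdc20: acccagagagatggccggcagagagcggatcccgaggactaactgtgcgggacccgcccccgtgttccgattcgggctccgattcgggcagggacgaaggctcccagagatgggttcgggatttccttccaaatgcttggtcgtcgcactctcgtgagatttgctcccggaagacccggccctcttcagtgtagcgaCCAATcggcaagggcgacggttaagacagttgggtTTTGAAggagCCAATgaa
Rpa2: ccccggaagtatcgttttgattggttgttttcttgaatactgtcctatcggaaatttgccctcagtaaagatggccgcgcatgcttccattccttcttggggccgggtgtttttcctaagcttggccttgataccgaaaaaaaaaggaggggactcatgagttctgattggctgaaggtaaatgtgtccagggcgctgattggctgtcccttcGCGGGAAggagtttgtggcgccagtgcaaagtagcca
Gins3: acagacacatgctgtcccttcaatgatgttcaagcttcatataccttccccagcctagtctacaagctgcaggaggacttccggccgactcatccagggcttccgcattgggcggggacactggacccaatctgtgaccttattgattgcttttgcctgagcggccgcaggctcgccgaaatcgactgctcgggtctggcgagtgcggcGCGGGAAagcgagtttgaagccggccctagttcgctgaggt

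The machinery that supplies dividing cells fell with them. The background was 14.6% of all genes called higher in medium and 10.1% higher in low cells. Of 24 measured genes of nucleotide synthesis 22 were called higher in medium cells and 0 in low cells (0 also at an unadjusted p below 0.05), with a median of 1.34. Mthfd2, an enzyme of mitochondrial folate metabolism, was at 11.01 and 11.01 in medium cells and at 9.60 and 9.13 in low cells (1.65 ± 0.18, limma adjusted p = 0.00436). The serine hydroxymethyltransferase Shmt2 (1.39 ± 0.18) and Umps (1.01 ± 0.12), which makes the pyrimidine nucleotide UMP, followed, and all 3 kept their call without any single array. Of 30 genes of ribosome biogenesis 27 were higher in medium cells (median 1.12), among them Utp20 (1.51 ± 0.16), Nop58 (1.20 ± 0.14) and Pes1 (1.10 ± 0.12), which act in processing of ribosomal RNA. Of 22 genes of nuclear transport 20 were higher (median 1.10), with the pore proteins Nup43 (1.56 ± 0.16) and Nup155 (1.41 ± 0.16). Of 23 genes of chromatin silencing and histone exchange 19 were higher (median 0.84). Hells, a remodelling enzyme needed for DNA methylation, was at 10.07 and 10.40 against 8.53 and 7.80, a difference of 2.07 ± 0.26, and the histone methyltransferase Ezh2 differed by 0.99 ± 0.13. Of 23 splicing factors 15 were higher with a median of 0.57, led by Lsm3 (0.94 ± 0.11). All of these counts shrank without a medium array. Without EphB2 Medium replicate 1 and 2 in turn they were 11 and 5 for nucleotide synthesis, 10 and 4 for ribosome biogenesis, 7 and 4 for nuclear transport, 7 and 3 for chromatin and 3 and 1 for splicing, where 6 were called without EphB2 Low replicate 2 and 9 without either EphB2 High array.

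Mitochondrial genes were described as a pair of lists, which were not tested against each other. Beside them stand 14.6% of all genes called higher in medium and 10.1% higher in low cells. None of 26 genes of the respiratory chain was called by limma in either direction, nor at an unadjusted p below 0.05 (0 genes), and their median difference was -0.06 at list levels of 13.32 and 13.31 in medium and 13.32 and 13.38 in low cells. Whether signals this high still follow the RNA in proportion was not tested. The widest of them was Ndufa1, a subunit of complex I, at -0.34. Genes for the mitochondrial ribosome, protein import and DNA upkeep were higher in medium cells for 12 of 30 (median 0.38), with the helicase Twnk at 1.07 ± 0.15 and the DNA packaging factor Tfam at 0.81 ± 0.17. The calls of both were lost without EphB2 Medium replicate 2 (adjusted p = 0.0506 for Twnk and 0.0869 for Tfam), that of Twnk also without EphB2 Medium replicate 1 (0.0506) and that of Tfam also without EphB2 Low replicate 1 (0.0709) and EphB2 Low replicate 2 (0.0678). The count was 1 without EphB2 Medium replicate 1, 0 without EphB2 Medium replicate 2 (11 at an unadjusted p below 0.05), 2 without EphB2 Low replicate 2 and 4 without either EphB2 High array, but 20 with dim genes removed or with a trended, robust variance prior.

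**Figure D2:**
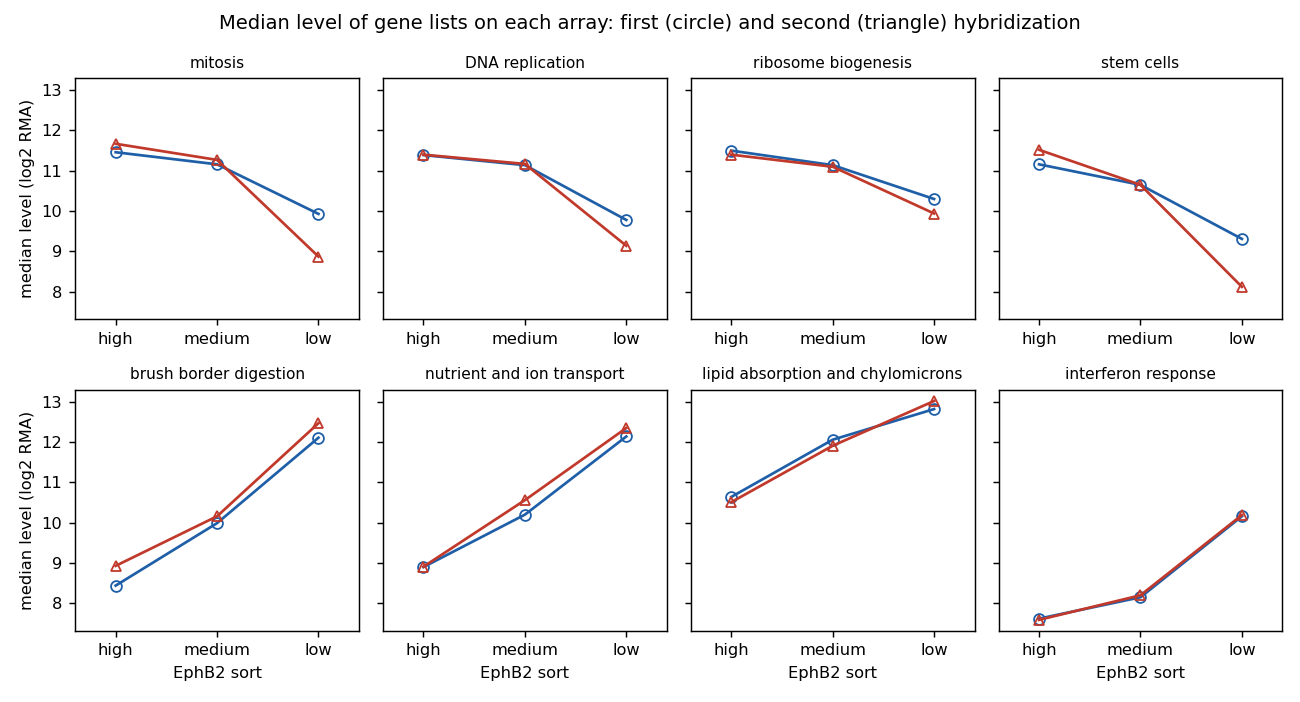
Median level of the members of 8 gene lists (log2 RMA, vertical axis) on each EphB2 array, ordered high, medium, low, with the first hybridization as circles and the second as triangles. Division and ribosome lists change little from high to medium and then drop, further in the second hybridization (mitosis, 9.93 and 8.87 on the low arrays), while digestion, transport and lipid lists climb at both steps and the interferon list climbs mainly at the second.

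Markers of stem cells fell at this step as well. Of 19 measured genes 18 were higher in medium cells, against 14.6% of all genes, the other was not called, and the median difference was 1.88. The list rests partly on published arrays of sorted crypt cells and may hold genes picked by the study from these very samples, so its direction is not independent evidence. Lgr5, the R-spondin receptor of cycling stem cells, was at 7.71 and 8.01 in medium cells and at 5.66 and 4.96 in low cells, a difference of 2.55 ± 0.25 (limma adjusted p = 0.0036). The stem cell transcription factor Ascl2 was at 9.88 and 9.87 against 7.42 and 7.13 (2.59 ± 0.16). Igfbp4, secreted and able to bind insulin-like growth factors, was at 9.34 and 9.43 against 6.98 and 6.62 (2.58 ± 0.16). None of the 3 had overlapping groups or lost its call without any single array. Olfm4, a secreted glycoprotein of crypt base cells, was at 12.32 and 11.90 in low cells beside 13.18 and 13.24 in medium cells (1.10 ± 0.17, call lost without EphB2 Medium replicate 2 at adjusted p = 0.0598). Stem cell genes differed already at the preceding step, by a median of 0.70 between high and medium cells with 5 called higher in high cells. The count of 18 became 10 and 7 without EphB2 Medium replicate 1 and 2.

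Among Wnt feedback genes and Wnt targets more were called lower than higher in low cells, less evenly than in the stem cell list. Tnfrsf19 counts in both lists. Of 19 genes of Wnt feedback and Wnt targets 10 were higher in medium cells and 1 in low cells, with a median of 0.76. Over all genes the shares were 14.6% and 10.1%. Axin2, the feedback inhibitor of the pathway, was at 11.85 and 11.77 in medium and 10.55 and 9.77 in low cells (1.65 ± 0.26, limma adjusted p = 0.0102), and the growth regulator Myc was at 10.42 and 10.59 against 9.14 and 7.68 (2.09 ± 0.44, adjusted p = 0.0219). EphB2 Low replicate 2 was the lowest array for both. Without either EphB2 Medium array limma called 0 of the 10 (11 and 10 of the list at an unadjusted p below 0.05), Axin2 at adjusted p = 0.0544 and 0.0579 and Myc at 0.0806 and 0.102. The Myc difference was 2.82 without EphB2 Low replicate 1 and 1.37 without EphB2 Low replicate 2.

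The Notch pathway holds progenitors from the secretory fate. Of its 23 measured genes 6 were higher in medium cells and 2 in low cells, beside 14.6% and 10.1% of all genes. The receptor Notch1 was at 10.82 and 10.86 in medium and 9.17 and 8.71 in low cells (1.90 ± 0.19, limma adjusted p = 0.00356), and Lfng, the glycosyltransferase that tunes Notch receptors, differed by 1.94 ± 0.25. Dtx4 (1.06 ± 0.13), a ubiquitin ligase of the pathway, also had a call kept without any single array. Without EphB2 Medium replicate 2 the 6 became 3, and both calls in the direction of low cells were lost without either medium array or without EphB2 Low replicate 2. Among Eph receptors and ephrins 5 of 17 were higher in medium and 4 in low cells, beside the same background shares. Ephb2 itself could not be followed, since it had no probe set naming it alone, but its relative Ephb3 was at 7.49 and 7.31 against 5.92 and 5.58 (1.65 ± 0.15). The receptors Epha4 (2.09 ± 0.22) and Ephb4 (1.41 ± 0.16) and the ligand Efna4 (1.27 ± 0.15) were higher in medium cells too. In low cells the receptor Epha1 was higher by 1.12 ± 0.17, a call lost without EphB2 Medium replicate 1 (adjusted p = 0.0533) and EphB2 Medium replicate 2 (0.0584). All 4 calls in that direction were lost without EphB2 Medium replicate 1 (4 had an unadjusted p below 0.05), and 1 gene was called without EphB2 Medium replicate 2.

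Of 22 genes of the BMP and hedgehog pathways 3 were called in each direction, near the background shares of 14.6% and 10.1%, and 1 was called higher in medium cells without EphB2 Medium replicate 2. Bmp2, a ligand made by differentiated epithelium that restrains growth, was at 8.58 and 8.90 in medium cells and at 10.53 and 11.26 in low cells, higher in low cells by 2.15 ± 0.26 (4.44-fold, limma adjusted p = 0.00604). Bmp7 went the other way, at 7.92 and 8.03 against 6.50 and 6.33 (1.56 ± 0.13, adjusted p = 0.00269). The protease Bmp1, which despite its name cuts procollagen, was higher in low cells by 1.51 ± 0.11. Ihh, the hedgehog ligand of the gut epithelium, was higher in low cells by 1.62 ± 0.26 and the hedgehog receptor Ptch1 lower by 0.90 ± 0.16. Without EphB2 Medium replicate 1 both calls were lost (adjusted p = 0.0587 for Ihh and 0.0696 for Ptch1), that of Ptch1 also without EphB2 Medium replicate 2 (0.0671).

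Some genes that stop the cell cycle were higher in low cells. Of 27 arrest genes 6 were higher in low cells beside 10.1% of all genes, 1 was higher in medium cells and 20 did not pass, with a median 0.30 higher in low cells. Mxd1, a partner of Max that opposes Myc, was at 11.17 and 11.44 in medium and 12.78 and 12.95 in low cells, higher in low cells by 1.56 ± 0.17 (limma adjusted p = 0.00435). The kinase inhibitor Cdkn1a was higher in low cells by 0.85 ± 0.16, a call lost without EphB2 Medium replicate 1 (adjusted p = 0.0739), EphB2 Medium replicate 2 (0.0859) and EphB2 Low replicate 2 (0.0759). Cdkn2c, an inhibitor of another family that blocks Cdk4 and Cdk6, was higher in medium cells by 1.28 ± 0.20, a call lost without EphB2 Medium replicate 2. With either medium array or EphB2 Low replicate 2 left out, 2 genes of the list were called higher in low cells. Of 26 genes of cell death and survival 5 were higher in low and 2 in medium cells (1 without either medium array), and the 5 became 1 or 2 whichever array was removed. Over all genes 10.1% were called higher in low and 14.6% higher in medium cells. The death receptor Fas was at 8.61 and 8.61 in medium and 10.72 and 11.05 in low cells, higher in low cells by 2.28 ± 0.14 (4.85-fold, adjusted p = 0.00132). Bcl2, which blocks mitochondrial cell death, was at 8.21 and 8.57 in medium and 6.41 and 6.37 in low cells, higher in medium cells by 2.00 ± 0.20 (4-fold, adjusted p = 0.00375). Both kept their call whichever array was left out.

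**Figure D3:**
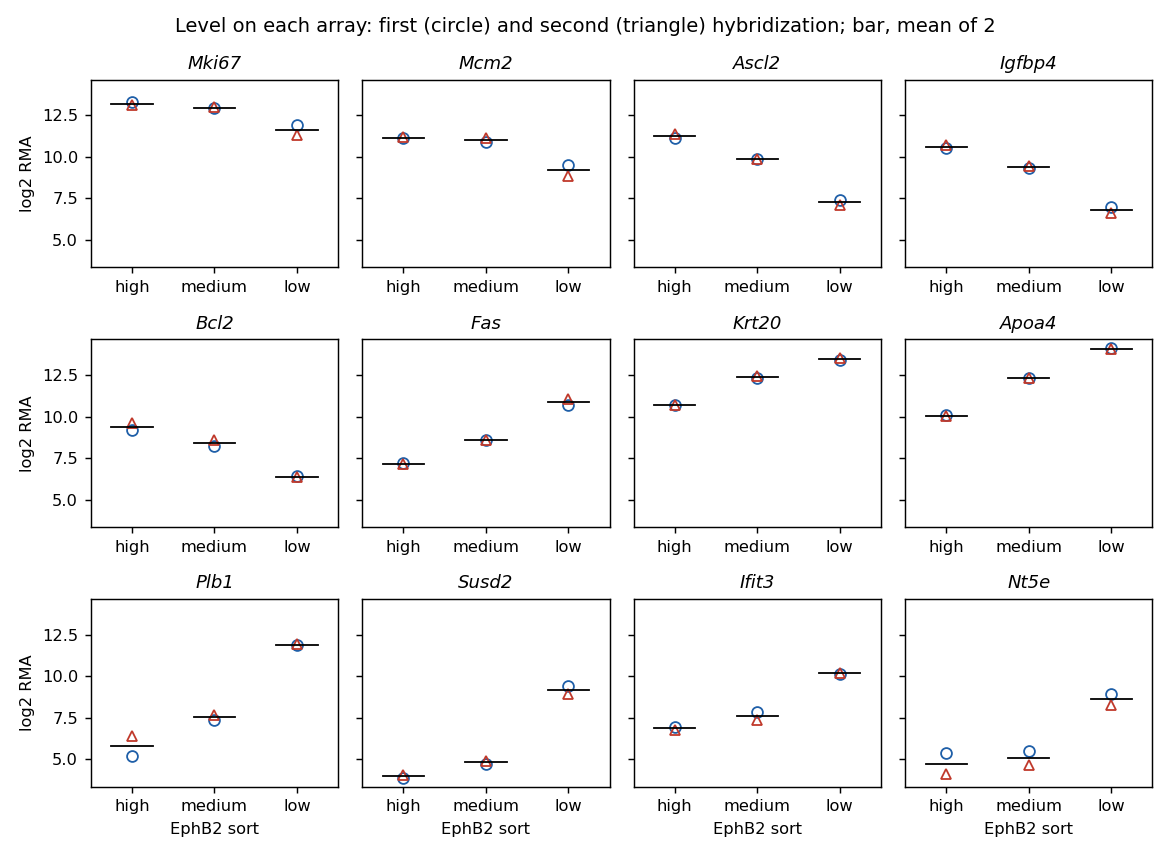
Level of 12 genes (log2 RMA, vertical axis, same scale in every panel) on each EphB2 array, with the first hybridization as circles, the second as triangles and a bar at the mean of the 2 arrays. Mki67 and Mcm2 change little from high to medium and then drop, Krt20 and Apoa4 climb at both steps, and Susd2 and Nt5e stay low in high and medium cells and are high only in low cells.

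Low cells gained the enzymes of the brush border. Of 18 measured digestion genes 16 were higher in low cells, against 10.1% of all genes, and 0 were higher in medium cells by limma (0 also at an unadjusted p below 0.05), with a median 1.82 higher in low cells. Plb1, a phospholipase of the brush border and the largest called difference, was at 7.40 and 7.67 in medium cells and at 11.88 and 11.96 in low cells, higher in low cells by 4.39 ± 0.37 (20.9-fold, limma adjusted p = 0.00269). The peptidase Ace was at 8.66 and 8.66 against 11.68 and 11.77, higher by 3.07 ± 0.11 (adjusted p = 0.00069), and the aminopeptidase Xpnpep2 was higher by 3.32 ± 0.23. Treh, which splits trehalose, was higher in low cells by 2.45 ± 0.13. These groups lay far apart, and the 4 calls held without any single array. Other enzymes had climbed further at the preceding step: the protease Mep1b rose by 2.15 from high to medium and by 1.45 ± 0.11 from medium to low, where it reached 13.85 and 13.94. The peptidase Anpep rose by 1.76 and then by 1.41 ± 0.13. Alpi, the alkaline phosphatase often used to mark enterocytes, was already at 12.64 and 12.61 in medium cells beside 13.26 and 13.34 in low cells. The difference of -0.68 ± 0.31 did not pass (limma adjusted p = 0.182). The medium and low arrays of Alpi did not overlap, and the error also takes in the spread between the EphB2 High arrays. The sucrase gene Sis was not measured by a probe set naming it alone. Unlike the division lists, the median was alike in both hybridizations, 1.86 and 1.79 higher in low cells. The count fell to 10 without EphB2 Medium replicate 2.

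Transporters followed the enzymes, again beside 10.1% of all genes called higher in low and 14.6% higher in medium cells. Of 34 genes of nutrient and ion transport 27 were higher in low cells and 1 in medium cells, the phosphate transporter Slc20a2 (named after its value was seen, its call lost without EphB2 Medium replicate 1 and 2 at adjusted p = 0.0542 and 0.0742), with a median 1.38 higher in low cells. The vitamin C transporter Slc23a1 was at 6.51 and 6.63 in medium and 9.85 and 10.21 in low cells, higher in low cells by 3.46 ± 0.19 (11-fold, limma adjusted p = 0.00111). Slc6a19, the main carrier of neutral amino acids, was at 8.85 and 9.04 against 12.04 and 12.30 (higher by 3.22 ± 0.30), and the phosphate transporter Slc34a2 was at 9.63 and 9.48 against 12.63 and 12.74 (higher by 3.13 ± 0.24). The fructose carrier Slc2a5 and the folate carrier Slc46a1 were higher by 2.22 ± 0.15 and 2.17 ± 0.13. None of the 5 lost its call without any single array. At the preceding step 14 of the 34 were called higher in medium than in high cells (background 1.15%), by a median of 1.12 over the list. The count of 27 was 16 without EphB2 Medium replicate 2.

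Genes of fat absorption were higher in low cells as well. The list of 29 genes had median levels of 12.06 and 11.91 in medium and 12.82 and 13.02 in low cells, and 24 were higher in low cells and 1 in medium cells, with a median 1.11 higher in low cells. Abca1, which loads cholesterol onto lipoproteins, was the largest, at 6.66 and 6.72 against 10.32 and 10.32, higher in low cells by 3.63 ± 0.18 (12.4-fold, limma adjusted p = 0.00106). From high to medium cells it differed by 0.65, which did not pass (adjusted p = 0.193), and its steps were not called different (adjusted p = 0.11). Apoa4, an apolipoprotein of chylomicrons, rose by 2.25 and then by 1.79 ± 0.11, to 14.13 and 14.06. The fatty acid transporter Slc27a4 and the apolipoprotein Apoc2 were higher in low cells by 1.90 ± 0.12 and 2.02 ± 0.15, and Abcg8, which returns plant sterols to the lumen, by 2.06 ± 0.12. Fabp1, the fatty acid binding protein, was at 13.74 and 13.90 against 14.06 and 14.10 and did not pass (adjusted p = 0.17). The member that ran against the list was Acsl3, named after its value was seen, an acyl-CoA synthetase that was higher in medium cells by 1.03 ± 0.17 and lost its call without EphB2 Medium replicate 2 (adjusted p = 0.0699). Of the list 15 and 12 genes were called higher in low cells without EphB2 Medium replicate 1 and 2. Of 22 genes that burn fatty acids 3 were higher in low cells and 1 in medium cells, near or under the background shares of 10.1% and 14.6%. The list's median was 0.20 higher in low cells. Crat, which passes acetyl groups between carnitine and coenzyme A, was higher in low cells by 1.47 ± 0.11, and the thioesterase Acot1 was higher in medium cells by 1.35 ± 0.19. With dim genes removed 7 were higher in low cells, and 6 with a trended, robust prior.

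Enzymes of drug and retinoid metabolism rose with 1 large exception, beside 10.1% of all genes called higher in low and 14.6% higher in medium cells. Of 32 genes 23 were higher in low cells (median 1.18 higher), 13 without either EphB2 Medium array. The cytochrome P450 Cyp2d26 was at 11.14 and 11.20 against 12.96 and 13.03 (higher in low cells by 1.82 ± 0.13, limma adjusted p = 0.00208), and the sterol hydroxylase Cyp27a1 was higher by 1.91 ± 0.16. Cyp1a1, which the aryl hydrocarbon receptor induces, was higher by 2.47 ± 0.15 from medium signals of 4.07 and 4.26, which may be background. The only member called higher in medium cells was Cyp2e1, the ethanol-oxidizing P450, at 8.13 and 8.22 in medium and 5.28 and 5.02 in low cells, a difference of 3.03 ± 0.29 (adjusted p = 0.00329). That made it one of the 2 genes at least 8-fold higher in medium cells by measured signal, beside Tnfrsf19 (3.17 ± 0.70), a receptor of the TNF family from the stem cell list. Tnfrsf19 lost its call without EphB2 Medium replicate 1 (adjusted p = 0.106) and EphB2 Medium replicate 2 (0.0834), and its difference was 4.31 and 2.04 without EphB2 Low replicate 1 and 2. Cyp2e1 kept its call without any single array.

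Most genes of the microvillus cytoskeleton were higher in low cells. Of 29 genes 22 were higher in low cells, against 10.1% of all genes, with a median 0.70 higher. Espn, which bundles actin in microvilli, was at 6.65 and 6.62 in medium cells and at 9.78 and 9.90 in low cells, higher in low cells by 3.20 ± 0.14 (9.21-fold, limma adjusted p = 0.000775). From high to medium cells Espn differed by 0.30 and did not pass (adjusted p = 0.425). Synpo, an actin-binding protein, was at 8.32 and 8.32 against 11.86 and 12.01 (higher by 3.62 ± 0.13), and the scaffold Pdzk1, which anchors transporters, was higher by 3.0 ± 0.16. Villin (Vil1), the classic bundling protein of the brush border, was at 13.00 and 13.06 in medium cells already and higher in low cells by 0.54 ± 0.11 (adjusted p = 0.0176), a call lost without EphB2 Medium replicate 1 (adjusted p = 0.0942), EphB2 Medium replicate 2 (0.0833) and EphB2 Low replicate 2 (0.0667). Krt20, a keratin of differentiated cells, was higher in low cells by 1.08 ± 0.12 after a rise of 1.69 at the preceding step. The count of 22 was 12 and 10 without EphB2 Medium replicate 1 and 2, and 13 without EphB2 Low replicate 2. Of 28 genes of apical junctions 2 were higher in low and 1 in medium cells, under the background share, and the adhesion molecule Epcam was at 13.56 and 13.72 against 13.54 and 13.63 (0.06 ± 0.13). The 2 calls were lost without either medium array or without EphB2 Low replicate 2.

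**Figure D4:**
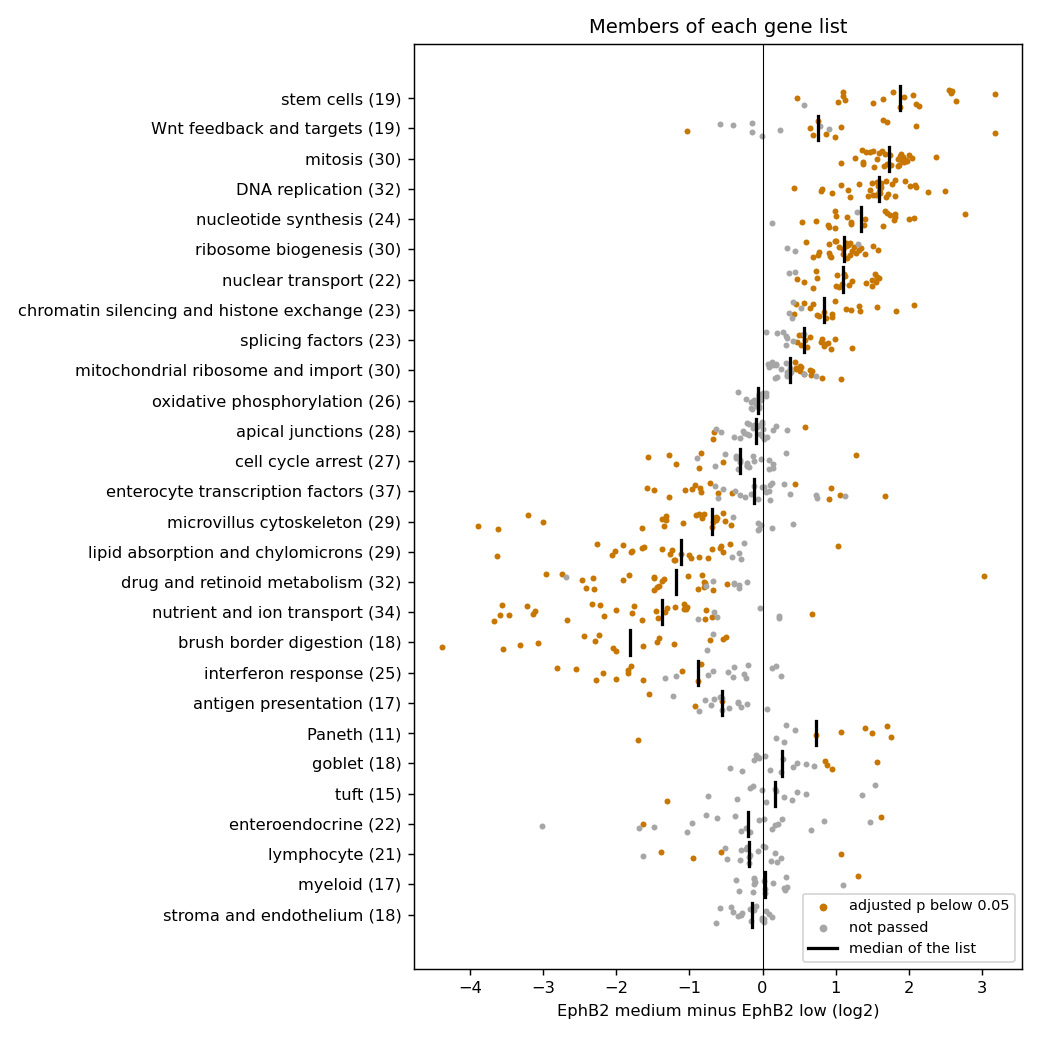
Difference between EphB2 medium and low cells (log2, horizontal axis) for the members of 28 gene lists (rows, with the number measured), with called genes in orange, others in grey and a bar at each list's median. Medians run from 1.88 for stem cell genes to 1.82 below 0 for brush border digestion, and lists of lymphocyte, myeloid and stromal markers lie near 0 with few called genes.

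More transcription factors of the enterocyte were called higher in low than in medium cells. Of 37 genes 11 were higher in low cells, against 10.1% of all genes. In medium cells 5 were higher, near the background share of 14.6%. The list's median was 0.12 higher in low cells. Hnf4a and Cdx2, which act in intestinal identity, did not pass: Hnf4a was at 13.50 and 13.56 against 13.44 and 13.38 (limma adjusted p = 0.478) and Cdx2 at 13.45 and 13.27 against 13.31 and 12.83 (adjusted p = 0.322). Nuclear receptors and a regulator of maturation were among those that rose. Nr1i3, the receptor CAR that senses foreign compounds, was at 9.55 and 9.46 in medium and 10.95 and 11.04 in low cells, higher in low cells by 1.49 ± 0.15 (adjusted p = 0.00395). Prdm1, a repressor that governs the suckling to adult switch, was higher in low cells by 1.28 ± 0.15 and Gata5 by 0.92 ± 0.12. Mybl2, a factor of dividing cells, was higher in medium cells by 1.67 ± 0.19. These 4 kept their calls, while the list's 11 became 7, 3 and 7 and its 5 became 2, 1 and 3 without EphB2 Medium replicate 1, EphB2 Medium replicate 2 and EphB2 Low replicate 2. Of 11 genes known from the villus tip 6 were higher in low cells (3 without EphB2 Medium replicate 2) and 1 in medium cells. That 1 was the growth factor receptor Egfr, named after its value was seen (0.82 ± 0.20, adjusted p = 0.0333), whose call was lost (adjusted p = 0.0603 to 0.13) with any single array left out other than EphB2 Low replicate 1. Nt5e, the ectoenzyme that makes adenosine, was at 5.50 and 4.65 in medium and 8.95 and 8.29 in low cells, higher in low cells by 3.55 ± 0.50. Its medium signals may be background, so this difference has no exact size. The call of Nt5e was lost without EphB2 Medium replicate 2.

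Large differences toward low cells were not limited to digestion genes. Susd2, a membrane protein, was at 4.73 and 4.92 in medium cells and at 9.45 and 8.93 in low cells, higher in low cells by 4.36 ± 0.20 (limma adjusted p = 0.000962). The kinase Sgk2 (4.12 ± 0.39), Spsb4 (4.01 ± 0.27), which recruits a ubiquitin ligase, and the membrane protein Pmp22 (4.01 ± 0.23) were higher in low cells too. Ceacam20, an adhesion molecule of the microvillus, was at 7.14 and 6.95 against 10.88 and 11.21 (4.0 ± 0.17), and Gdpd2 (3.98 ± 0.22), Serpina1c (3.88 ± 0.16), a protease inhibitor, and the laminin chain Lama3 (3.81 ± 0.32) differed likewise. Npl, Slc7a15, Nlrp9b, Saa1 and Slc46a3 lay between 3.70 and 3.72. Susd2, Sgk2, Spsb4, Lama3 and Npl had mean medium signals of 4.83, 5.21, 4.05, 4.82 and 4.94, which may be background, so their differences have no exact size or rank. The call of all these was kept without any single array, while that of Tmigd1 (3.88 ± 0.69), an adhesion molecule of enterocytes, was lost without EphB2 Medium replicate 1 and EphB2 Low replicate 2 (adjusted p = 0.0645 and 0.0748). It was higher in low cells by 3.24 and 4.53 without EphB2 Medium replicate 1 and 2. Higher in medium cells beside Tnfrsf19 and Cyp2e1 were Ripor2 (2.93 ± 0.41) and the arginine transporter Slc7a2, at 7.74 and 8.29 against 5.09 and 5.20 (2.87 ± 0.31). The receptor phosphatase Ptpro (2.76 ± 0.22), Wdr31 (2.71 ± 0.28), the urea transporter Slc14a1 (2.69 ± 0.38), the RNA-binding protein Mex3a (2.64 ± 0.26), Rassf5 (2.56 ± 0.24) and the cytoskeletal adaptor Sorbs2 (2.56 ± 0.33) kept their calls without any single array. Ccdc18 (2.82 ± 0.60), the deaminase Dctd (2.77 ± 0.49) and the matrix protein Prelp (2.75 ± 0.41) lost theirs without either medium array. Without EphB2 Low replicate 1 and 2 in turn they differed by 3.80 and 1.84, by 3.55 and 1.99, and by 3.39 and 2.10. The low cells' mean signals of Tnfrsf19, Cyp2e1, Slc7a2, Ptpro and Ccdc18 lay between 5.14 and 5.24, which may be background as well. Ripor2 lost its call without EphB2 Medium replicate 2 (adjusted p = 0.052).

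Part of the interferon response genes were higher in low cells. Over all genes 10.1% were called higher in low and 14.6% higher in medium cells, the background also for antigen presentation below. Of 25 measured interferon genes 12 were called, all higher in low cells, and 13 did not pass. By limma 0 were higher in medium cells (0 also at an unadjusted p below 0.05), and the median was 0.88 higher in low cells. With the replicate block, which takes out the shared hybridization, 16 were called. The 12 became 5 without EphB2 Medium replicate 2 and 7 when EphB2 Low replicate 1 was left out. Ifit3, an antiviral protein, was at 7.86 and 7.40 in medium cells and at 10.16 and 10.20 in low cells. It was higher in low cells by 2.55 ± 0.18 (5.86-fold, limma adjusted p = 0.00185). Its relative Ifit1 was at 7.95 and 7.32 against 10.67 and 10.21 (higher by 2.81 ± 0.31), and Rsad2, the antiviral enzyme viperin, was at 7.51 and 7.90 against 10.17 and 9.80 (higher by 2.28 ± 0.19). The RNA sensor Ddx58 (1.64 ± 0.19) and Oasl1 (2.19 ± 0.32) were higher in low cells as well, and none of these 5 lost its call without any single array. For antigen presentation 3 of 17 were higher in low cells and 0 in medium cells by limma (7 and 0 at an unadjusted p below 0.05), 6 with the replicate block, 1 without EphB2 Medium replicate 2 and 0 with EphB2 Low replicate 2 left out (4 at an unadjusted p below 0.05). Lymphocyte markers lay at signals that may be background. The mean level of 21 genes was 4.60 and 4.43 on the medium arrays and 4.85 and 4.69 on the low arrays. At an unadjusted limma p below 0.05, 7 lay toward low and 1 toward medium cells. Of all 18193 genes 6654 passed that limit in either direction. The mean level of 17 myeloid genes was 4.96 and 4.80 against 4.81 and 4.64. Their part in the interferon result was not tested.

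The promoters of 3 of these genes carry the interferon response element and are shown for that reason. Spelled GAAA, then any 2 bases, then GAAA again, on either strand, the element was in 9 of 24 windows of the list (37.5%, 19 genes), against 3.0% of all windows. It was in 2 of 20 windows of digestion genes (10%), 1 of 26 of mitosis genes (3.8%) and none of those of replication, transport and lipid absorption genes. Ifit3 (chr19:34583279-34583528, plus strand), Rsad2 (chr12:26456453-26456702, minus strand) and Ifit1 (chr19:34640639-34640888, plus strand) are given in the RefSeq sequence of GRCm38.p6, with the element in capitals.
Ifit3: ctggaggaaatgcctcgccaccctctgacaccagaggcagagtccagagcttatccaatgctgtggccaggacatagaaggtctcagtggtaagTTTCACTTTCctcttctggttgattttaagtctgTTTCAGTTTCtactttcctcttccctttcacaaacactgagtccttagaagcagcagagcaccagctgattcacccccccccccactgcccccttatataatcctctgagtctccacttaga
Rsad2: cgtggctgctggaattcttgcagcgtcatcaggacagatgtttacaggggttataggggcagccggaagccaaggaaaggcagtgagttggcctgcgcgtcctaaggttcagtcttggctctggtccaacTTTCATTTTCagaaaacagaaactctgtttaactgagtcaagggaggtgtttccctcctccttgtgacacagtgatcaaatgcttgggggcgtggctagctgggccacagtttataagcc
Ifit1: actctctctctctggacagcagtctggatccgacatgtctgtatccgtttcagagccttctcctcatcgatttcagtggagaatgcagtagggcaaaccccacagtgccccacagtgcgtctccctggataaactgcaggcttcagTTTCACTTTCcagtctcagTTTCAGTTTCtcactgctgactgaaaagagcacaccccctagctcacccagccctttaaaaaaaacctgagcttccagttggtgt
For the absorptive lists the HNF4 core (AAGTCCA) was in 3 of 20 windows of digestion genes (15%), 4 of 33 of transport genes (12.1%) and 1 of 26 of lipid genes (3.8%), but also in 3 of 33 of replication genes (9.1%), against 3.4% of all windows.

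Of 22 measured genes of epithelial defence 6 were higher in low cells and 1 in medium cells, beside 10.1% and 14.6% of all genes. Saa1, a serum amyloid protein, was at 7.87 and 7.55 against 11.67 and 11.14, higher in low cells by 3.70 ± 0.22 (limma adjusted p = 0.00127). The antimicrobial lectin Reg3a was at 11.21 and 11.41 in medium and 12.79 and 13.05 in low cells, higher in low cells by 1.61 ± 0.18, after a rise of 2.16 at the preceding step. Nos2, the inducible nitric oxide synthase, was higher in low cells by 1.76 ± 0.33, but its call was lost without EphB2 Medium replicate 1 (adjusted p = 0.0515) and EphB2 Medium replicate 2 (0.0862).

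Called Paneth cell genes were mostly higher in medium cells, while few enteroendocrine and tuft cell genes were called. The goblet cell count lay nearer the background, which was 14.6% of all genes called higher in medium and 10.1% higher in low cells. Of 11 Paneth cell genes 6 were higher in medium cells and 1 in low cells (the 6 became 3 without EphB2 Medium replicate 2 or EphB2 Low replicate 2). The phospholipase Pla2g2a was at 10.11 and 10.38 in medium and 8.73 and 8.77 in low cells (1.5 ± 0.13, limma adjusted p = 0.00302), and Mmp7, which activates defensins, differed by 1.40 ± 0.17. The defensin Defa3 (1.71 ± 0.22) shares sequence with near-identical relatives, and the lysozyme Lyz1 was at 13.62 and 13.90 against 13.42 and 13.47 and did not pass (adjusted p = 0.167). The list member called the other way was Guca2b, uroguanylin, higher in low cells by 1.70 ± 0.12. Of 18 goblet cell genes 4 were higher in medium cells and 0 in low cells, led by the antimicrobial Retnlb (1.57 ± 0.26). The median of the goblet list was 0.26, with 0.04 in the first and 0.50 in the second hybridization. Without EphB2 Medium replicate 1 or 2 the goblet calls were lost, that of Retnlb included. The mucin Muc2 was at 12.33 and 12.77 against 12.80 and 12.49 (adjusted p = 0.783).

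Of 22 enteroendocrine genes 1 was higher in each direction, below the background shares of 14.6% and 10.1%, and 3 in each with the replicate block. Neurog3, the factor that commits endocrine progenitors, was at 7.84 and 8.38 in medium and 6.82 and 6.16 in low cells (1.62 ± 0.27, limma adjusted p = 0.0118), a call lost without EphB2 Medium replicate 2 (adjusted p = 0.0642). The hormone secretin (Sct) was at 10.56 and 10.08 against 12.01 and 11.91, higher in low cells by 1.64 ± 0.20 (adjusted p = 0.00592). Chga, a granule protein, differed more between the 2 medium arrays (11.86 and 10.31) than between the groups (adjusted p = 0.45). Of 15 tuft cell genes limma called 0 higher in medium cells (3 at an unadjusted p below 0.05) and 1 in low cells, the leukotriene synthase Ltc4s (1.30 ± 0.19, call lost without EphB2 Medium replicate 2 at adjusted p = 0.0553), and with the replicate block 4 were higher in medium cells. The tuft kinase Dclk1 was at 7.77 and 6.35 against 6.01 and 5.04 and did not pass (adjusted p = 0.0885).

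Markers of cells from outside the epithelium were read as well, beside 14.6% of all genes called higher in medium and 10.1% higher in low cells. The pan-leukocyte gene Ptprc was at 3.49 and 3.77 in medium cells and at 3.61 and 3.63 in low cells (0.01 ± 0.14, limma adjusted p = 0.968). Of 21 lymphocyte genes 3 were higher in low and 1 in medium cells, led by Cd52, a glycoprotein of lymphocytes, higher in low cells by 1.38 ± 0.16 from levels of 5.67 and 5.37 (the 3 became 1 without either medium array). Of 17 myeloid genes 1 was called, the lipopolysaccharide co-receptor Cd14, at 9.32 and 9.0 in medium cells and 8.01 and 7.70 in low cells. Its difference of 1.30 ± 0.22 lost its call without EphB2 Medium replicate 1 (adjusted p = 0.063), EphB2 Medium replicate 2 (0.0506) and EphB2 Low replicate 2 (0.0582). Of 18 stromal and endothelial genes limma called 0 (2 at an unadjusted p below 0.05, both higher in low cells, and 2 called without EphB2 Low replicate 1), with mean levels of 5.16 and 4.97 in medium and 5.25 and 5.24 in low cells. Of 7 red blood cell genes 1 was called higher in low cells, a call lost with the replicate block (where 1 was higher in medium cells), with the 4 arrays alone, with the mean of all probe sets and with any single array left out other than EphB2 Low replicate 1, without which 2 were called. Of 18 genes that dissociation can induce 2 were higher in medium cells, Ier2 and Hsp90aa1, under the background share of 14.6%. Both calls were lost when either medium array, EphB2 Low replicate 2 or either high array was left out, and that of Hsp90aa1 also without EphB2 Low replicate 1.

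The step from medium to low was then set against the step from high to medium within each gene, by the limma contrast that subtracts the second difference from the first. It called 1 gene of 18193 (0.0055%), Gsdma, a pore-forming gasdermin. Gsdma was at 4.05 and 3.99 in high cells, 3.54 and 3.37 in medium cells and 6.92 and 6.82 in low cells, higher in low than in medium cells by 3.41 ± 0.12, and the steps differed by 3.98 ± 0.21 (adjusted p = 0.0332). Its signals in high and medium cells lie near that of the leukocyte gene Ptprc and may be background, so neither difference has an exact size, and it is named after its value was seen. With the replicate block, or with any single array left out, this call was lost. For Susd2 the step was 4.36 from medium to low and 0.86 from high to medium (difference 3.51 ± 0.35, adjusted p = 0.11), for Espn 3.20 and 0.30 (2.91 ± 0.24, adjusted p = 0.0839) and for Slc46a3 3.70 and 0.87 (2.83 ± 0.22, adjusted p = 0.0692). None passed, and a missed threshold does not show that the steps were equal. Limma called 1 gene higher in medium cells than in both neighbours, the uncharacterized transcript 1700003G18Rik.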

How the data were processed

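Gene expression in mouse crypt cells sorted by EphB2 was measured on Affymetrix arrays. The deposited table holds log2 values that the authors made with RMA, per the submitters' processing notes; its version, and whether the 8 arrays were normalized together, are not given in the sources used here. Array medians lay between 6.12 and 6.20, so these arrays cannot show a change in the amount of RNA per cell, and the number of arrays limits the precision. Of 45101 probe sets, 64 controls, 932 naming several genes and 9160 unnamed in the annotation table used were left out, and the gene ID of 34741 of the 34945 others was found in the RefSeq table. Each gene took its brightest probe set over the 6 EphB2 arrays. Ephb2 had none naming it alone.

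The test was limma 3.58.1 in R 4.3.3 (lmFit, contrasts.fit, eBayes, 2-sided), fitted to the 6 EphB2 arrays by group alone, with 3 residual degrees of freedom and Benjamini-Hochberg adjustment over 18193 genes. It was run on simulated data whose noise was independent between arrays, so that run does not cover the shared hybridization. Replicate numbers mark shared hybridizations on the labels and so pair the arrays. Across genes, the deviations of arrays with the same number from their group means had a correlation of 0.21 for medium and low, 0.45 for high and medium and 0.13 for high and low. A fit with this number as a block was an alternative, as were the 4 arrays alone, each array left out, other choices of probe set, a second quantile normalization, a filter on dim genes and another variance prior.

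The members, the 37 gene lists (844 of 915 entries measured) and the rules were chosen with earlier results of these data known. Lists are given by counts and medians, with no test of the list. Their background is the share of all genes called, 14.6% higher in medium and 10.1% higher in low cells, and the median of -0.006 over all genes. Named genes were the 15 largest called differences in each direction with arrays not overlapping and the brighter mean above the median of all genes, up to 6 members of smallest p per list, a fixed set of markers, and the members singled out in the text as named after their values were seen. 1 list entry, Cpo, was dropped after the files were seen because its only match was another gene. Of the promoter motifs, the 5 reported were kept after the motifs GCGCGAA of E2F, GTTAAT of HNF1, TTTATG of CDX and TGATAA of GATA factors and further lists had been scanned as well, so their shares are descriptions chosen after the values were seen.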

Additional observations from a re-analysis of the deposited data

How the results depend on the processing

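With the replicate block, which pairs the arrays by hybridization, limma called 5082 genes between medium and low cells (2957 higher in medium, 2125 higher in low), of which 4343 were among the 4489. Beside the list counts given with the report, the block moved 2 named genes out of the calls and 13 into them and reversed 0. Leaving out 1 array gave 988 to 4199 called genes, 407 to 2536 higher in medium cells and 581 to 1663 higher in low cells. All 34945 single-gene probe sets tested singly gave 6772 calls, 3920 higher in medium and 2852 higher in low cells. For the contrast between the steps the count of 1 became 0 with the block, 0 with all single-gene probe sets, 0 to 0 with 1 array left out, 8 with the mean of all probe sets, 3 with a second quantile normalization, 22 with dim genes removed and 6 with the trended, robust prior, and the cause was not tested. The 4 arrays alone called 3494 genes, a fit that leaving out either EphB2 High array also gives. Of the named genes 0 reversed under the settings run gene by gene. With 2 arrays per group and 3 residual degrees of freedom, small differences may go uncalled.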

Other observations

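Other probe sets of a gene could differ from the one that stands for it. Of 2503 called genes with further single-gene probe sets, 397 had one with the opposite sign of difference, and in 9 such genes a further probe set was itself called, by limma with adjustment over all single-gene probe sets. Tiam2, an activator of the GTPase Rac, was higher in medium cells by 0.84 on its brightest probe set (9.79 and 9.70 in medium, 9.01 and 8.80 in low cells), while another was higher in low cells by 1.28 (7.77 and 8.24 against 8.97 and 9.61; adjusted p = 0.0248). Gsdme, a gasdermin, was higher in low cells by 1.22 on its brightest probe set (9.65 and 10.19 against 10.71 and 11.57), while another was higher in medium cells by 0.79 (10.24 and 9.70 against 9.30 and 9.07; adjusted p = 0.0493). The signaling regulator Rgs3 was higher in low cells by 0.81 on its brightest probe set and higher in medium cells by 0.74 on another (adjusted p = 0.0178). These genes are named after their values were seen, and which transcripts the probe sets measure was not tested.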
